A study of Mus musculus with 82 samples.

Results

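The genes described here are a list chosen with earlier results of these data known, out of 55401 genes in the table. They are 50 genes of DNA replication and S phase, taken by name for origin licensing, replication fork, nucleotide supply and chromatin assembly. Of these, 48 had counts, and all 48 passed the filter on low counts at both time points, whereas Cdt1 and Gins2 were listed at 0 in all 82 libraries. RNA was sequenced from murine aortic vascular smooth muscle cells (aVSMC), primary cells of C57BL/6 mice that had spent 24 h in medium without serum and supplements before the stimuli were added. The growth medium used before that step itself contained EGF, and every group, the controls included, shares this history. After 24 h, cells of 6 mice were compared in 7 groups: control, EGF at 10 µg/L, AngII (angiotensin II) at 10 nM, U46619, an agonist of the thromboxane A2 receptor TP, at 1 µM, the mixtures of EGF with either of the other agents, and the mixture of all 3. After 48 h, sequencing batch B1 held control, EGF, U46619 and EGF + U46619, and batch B2 held control, EGF, AngII and EGF + AngII, each with 5 cultures per group. The labels give 5 mouse numbers for these 10 culture sets, with 1 number on 5 of them, while the methods describe 1 mouse per replicate.

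A dividing cell licenses its origins of replication before S phase, when the origin recognition complex, Cdc6 and Cdt1 load the ring-shaped MCM helicase onto DNA. At the start of S phase Mcm10, Cdc45 and the GINS complex turn the loaded ring into a working helicase, primase and the replicative polymerases copy both strands around the sliding clamp Pcna, and enzymes of deoxynucleotide synthesis supply the building blocks. Many of these genes are known targets of E2F factors, which the RB proteins hold in check in resting cells. Smooth muscle cells of the vessel wall rarely divide, and growth factors can bring cultured ones back into the cell cycle.

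Promoter sequences from RefSeq (GRCm38.p6) were at hand for 42 of the 50 genes, as windows from 250 bases before to 50 bases after each start. A motif of the E2F family, searched on both strands as TTTCCCGC, TTTCGCGC, TTTGCCGC or TTTGGCGC, stood, on its own or more than once, in the windows of 16 of these 42 genes, 7 of them licensing genes. Counted over windows, 32.7% of 49 windows of the replication genes held it, against 2.26% of all 32851 windows. The CCAAT box (CCAAT, both strands) stood in 55.1% of their windows and 37.4% of all, and the CHR motif TTTGAA, also on both strands, in 10.2% and 17.9%. None of these strings is contained in another, and a match is a string of letters, not a measured binding site. The stretches below belong to genes whose levels are given in full and that carry the E2F motif before a RefSeq start. They are read 5′ to 3′ on the strand of the gene, the motif is in capitals in either orientation, and they lie at chr4:108579397-108579453 (Orc1, plus strand), chr1:128359715-128359782 (Mcm6, minus strand), chr17:56304098-56304165 (Uhrf1, plus strand) and chr2:72476118-72476185 (Cdca7, plus strand).
Orc1: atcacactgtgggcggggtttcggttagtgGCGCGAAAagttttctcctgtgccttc
Mcm6: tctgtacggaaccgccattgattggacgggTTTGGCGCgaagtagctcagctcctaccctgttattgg
Uhrf1: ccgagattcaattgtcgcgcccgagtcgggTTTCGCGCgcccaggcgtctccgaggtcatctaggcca
Cdca7: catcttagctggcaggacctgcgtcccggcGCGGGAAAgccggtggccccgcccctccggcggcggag
Distances are to the RefSeq start of the window that holds the match. The motif lay 27 bases before that start in Orc1, 47 in Mcm6 and 71 in Cdca7, and farther upstream in Uhrf1. The Mcm6 window held 3 matches in all, of which the 1 nearest before the start is shown. Uhrf1 has another RefSeq window farther upstream, which held no match. By the gene coordinates given below, the Orc1 and Uhrf1 motifs lie inside the annotated gene.

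Total counts ranged from 16483529 to 20818809 per library after 24 h and from 19936925 to 33916114 after 48 h. Every gene of chromosomes 9, X, Y and MT was listed at 0 in all libraries, and so was every gene of chromosome 8 from position 98196676 (GRCm38) to the end, 657 genes of which 312 are protein-coding. Cdt1 and Gins2 lie in that stretch, so nothing is said here of their expression. Exons on the opposite strand cover 78.8% of the exon bases of Fen1 (antisense gene Gm10143), 52.5% of those of Chaf1a (Ubxn6) and 29.8% of those of Orc2 (Nif3l1), and whether the counting used strand is not given in the sources used here, so the levels of these genes are uncertain. Pcna and Tyms have annotated pseudogenes, and reads that align to several places were counted. The smooth muscle actin gene Acta2 was high in the controls after 24 h, from 1149 to 4949 FPM, and Smtn and Myh11 were detected in every mouse, Myh11 from 2.68 to 90.9 FPM, while the smooth muscle genes Tagln and Cnn1, on chromosome 9, were listed at 0. FPM are fragments on the scale of 1000000 counts per library after TMM normalisation.

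In the controls after 24 h the replication genes spanned a wide range of levels. Per kilobase of exon, Pcna, the sliding clamp, stood first at 44 ± 19.3 FPM per kb (mean ± SD, n = 6), followed by Gins4 at 24.5 ± 5.65 and the polymerase delta subunit Pold2 at 22.6 ± 8.98, and the ranges of all 3 overlapped, so that this order holds for the means. The lowest were Orc1, the largest subunit of the origin recognition complex, at 0.265 ± 0.15 FPM per kb, Fen1 at 0.484 ± 0.192 and Mcm10 at 0.501 ± 0.376. The place of Fen1 is uncertain, given its overlap with exons on the opposite strand. The summed level of the 48 genes in the control cultures was 883 FPM in mouse 1, 944 in mouse 2, 1184 in mouse 3, 1611 in mouse 4, 1142 in mouse 5 and 1465 in mouse 6. The control cultures of mice 1 and 2 were thus the lowest and those of mice 4 and 6 the highest.

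Replication genes rose after 24 h with U46619 and with each mixture, few passed with EGF alone, none passed with AngII, and no replication gene fell. With U46619, 42 of 48 rose, a gene being called where the Benjamini-Hochberg FDR was under 0.05 in both edgeR and DESeq2 and the mean reached 5 FPM in a group compared. Among all 14528 genes tested 13.7% rose in that comparison. EGF + U46619 raised 46 of 48 against 17.1% of all genes, EGF + AngII + U46619 also 46 against 18.2%, and EGF + AngII 23 against 1.54%. EGF alone raised 2, Cdca7 and Ung, the only genes among all those tested that were called higher in that comparison (0.0138%). The fitted values of the other genes with EGF were nevertheless mostly above 0: 45 of 48 had an unadjusted p under 0.05 by both tests, against 7.81% of all genes. DESeq2 by itself called 27, a count for which no share of all genes is given. For EGF + AngII the same unadjusted count was 47, against 11.2%. AngII alone called none, by either tool, with no replication gene at an unadjusted p under 0.05 by both tests and 0% of all genes called. U46619 and EGF were not compared with each other. For EGF alone at this time point the paper reports far more regulated genes than were called here, under the same stated rule. Its main text does not name the edgeR test used. The number of replication genes called with EGF changed with the test, as given at the end. The cause of the gap to the paper was not tested, so the few calls do not show that EGF changed few genes.

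The median log2-fold change over the 48 genes was 0.98 with EGF, 1.11 with U46619, 1.11 with EGF + AngII, 1.36 with EGF + U46619, 1.40 with all 3 stimuli and 0.08 with AngII. The medians over all genes tested lay between −0.06 and −0.01 in these 6 comparisons. These comparisons share the same 6 control cultures. The counts depended on single mice, since the number called with EGF was 0 without mouse 1, 2, 3 or 5 and 29 without mouse 6, that with EGF + AngII was 0 without mouse 1, 2, 3 or 5 and 38 without mouse 6, and that with U46619 was 26 without mouse 1 and 19 without mouse 2. With EGF + U46619 it stayed between 38 and 47 whichever mouse was left out. Shares of all genes called are not given for these leave-out counts, which are thus descriptive only. In bulk RNA a larger number of cells in S phase and more RNA of these genes per cell cannot be told apart. In a separate BrdU assay the paper reports more DNA synthesis with EGF, less with U46619 and no significant change with the mixture of both. The RNA levels given here are not a measure of DNA synthesis, and their relation to it was not tested.

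**Figure D1:**
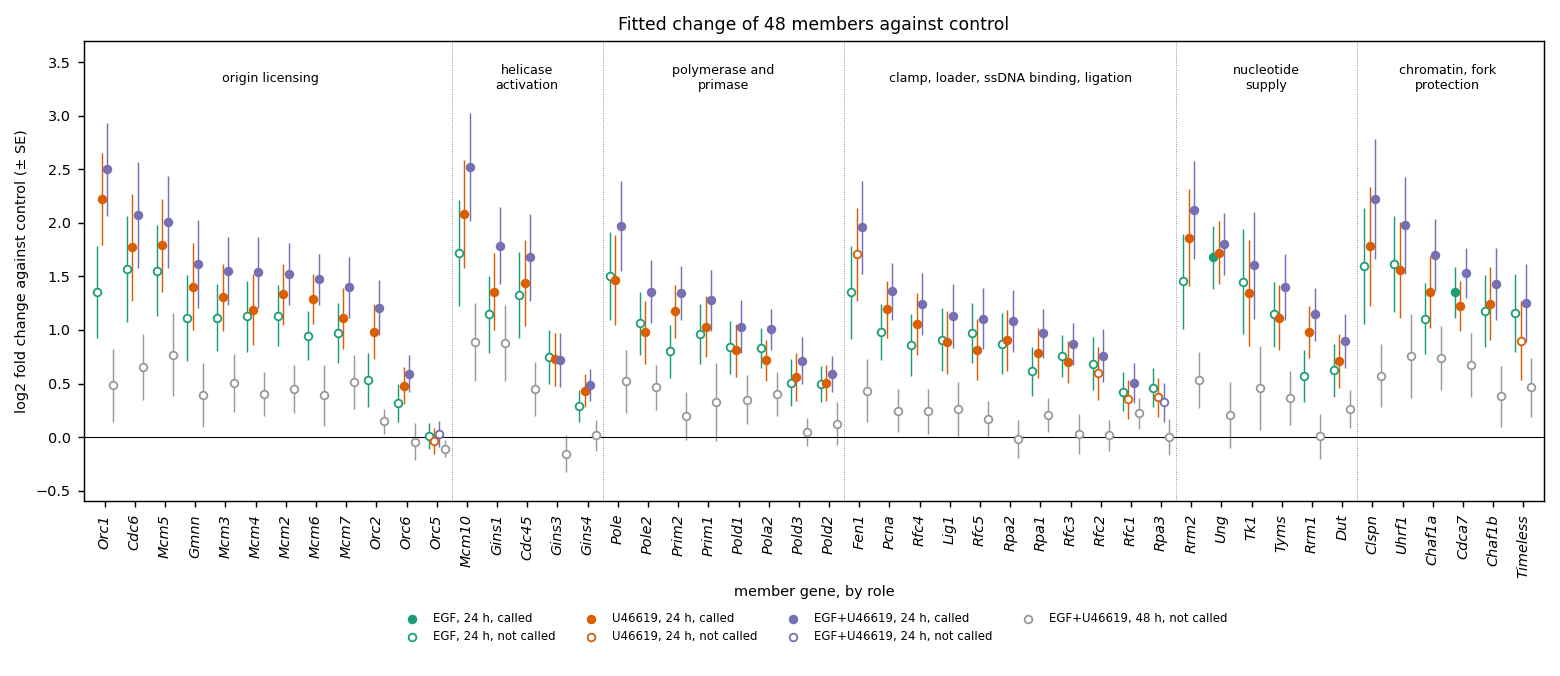
Fitted log2-fold change against control (vertical axis, bars are the SE from edgeR) for the 48 replication genes (horizontal axis, grouped by role and ordered by the EGF + U46619 value at 24 h) with EGF, U46619 and EGF + U46619 after 24 h and with EGF + U46619 after 48 h; filled points passed the test. Of the 48 genes, 2, 42 and 46 are filled for the first 3 and none for 48 h, and Orc5 lies near 0 in the 24 h series. The 48 h values come from the fit of both batches without a batch term.

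The size of the response differed greatly between mice. In mouse 1 the summed level of the 48 genes went from 883 FPM in the control to 4129.5 with EGF, 4883 with U46619 and 5304 with the mixture of both, and in mouse 2 from 944 to 2312, 4279 and 4693. In mouse 3 it went from 1184 to 3422, 3177 and 4324. The cultures of these 3 mice thus rose several-fold. In mouse 4 the 4 values were 1611, 1799, 1855 and 2099 FPM, in mouse 5 1142, 1929, 1595 and 2018, and in mouse 6 1465, 1698, 1628 and 1716. The treated cultures of mice 4, 5 and 6 thus stayed within a narrow range whose lower end lay below the highest control. Taken gene by gene within a mouse, on the log2(FPM + 0.5) scale, the median difference between EGF + U46619 and control was 2.61, 2.25, 1.90, 0.35, 0.79 and 0.21 in mice 1 to 6. With EGF it was 2.27, 1.45, 1.63, 0.15, 0.82 and 0.23, and with U46619 2.44, 2.17, 1.43, 0.10, 0.47 and 0.11. With EGF + U46619, 36 of 48 genes were higher in every mouse, with EGF 30, with U46619 20 and with AngII 1, and none was lower in every mouse. The same counts over all genes are not given, so these counts are descriptive only.

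Cell type markers varied between the mice as well. The summed level of the endothelial markers, led by Pecam1 and Tie1, in the control cultures was 4.85, 6.57, 59.3, 599, 349.7 and 1553 FPM in mice 1 to 6, and with EGF + U46619 it was 1.7, 2.97, 45, 485, 299 and 1747 FPM. Mice 4, 5 and 6 thus had far more endothelial marker RNA in both groups than mice 1 and 2, with mouse 3 in between, and 5 of the 6 listed markers had counts (Cdh5 was listed at 0). The smooth muscle markers summed to 3569, 1517, 1215, 2385, 5156 and 2679.7 FPM in the controls of mice 1 to 6. Macrophage and leukocyte markers, all 6 with counts, summed to at most 49.3 FPM, and adventitial fibroblast markers to between 349 and 833 FPM. Of 5 measured fibroblast markers 4 fell with U46619, against 14.2% of all genes, and 5 with EGF + U46619, against 16.3%, Pdgfra by 0.85 on the log2 scale with the mixture. Of 4 measured smooth muscle markers Acta2 rose with the mixture, by 1.62, while Smtn (0.25 ± 0.14), Myh11 (−0.28 ± 0.47) and Myocd did not pass. The part of these cell type differences in the replication response was not tested.

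**Figure D2:**
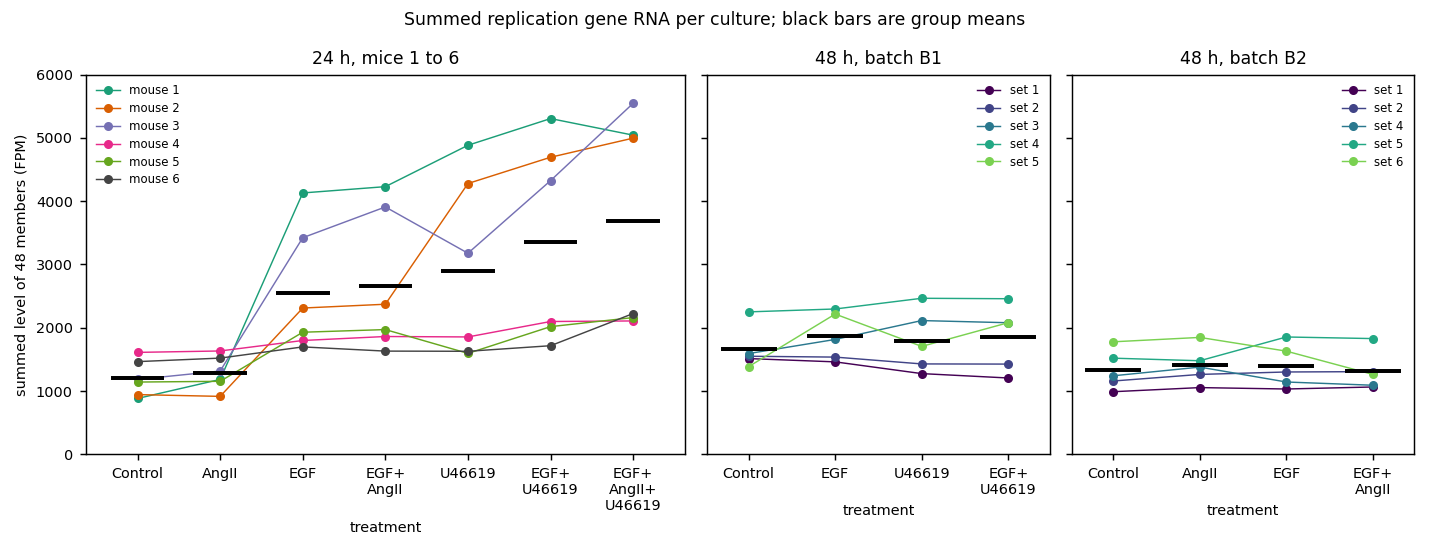
Summed level of the 48 replication genes in FPM (vertical axis) in every culture, by treatment (horizontal axis), after 24 h and in both batches after 48 h; thin lines join the cultures of a mouse or culture set and black bars are group means. Cultures of mice 1, 2 and 3 reach 4324 to 5304 FPM with EGF + U46619, those of mice 4, 5 and 6 1716 to 2099, and no culture exceeds 2466 FPM after 48 h.

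Some origin licensing genes were among those with the largest changes, as were genes of other groups. Of 12 licensing genes with counts, 11 rose with U46619, 11 with EGF + U46619 and 6 with EGF + AngII. The median log2-fold change of the licensing group was 1.11 for EGF, 1.30 for U46619 and 1.53 for both together. All 6 subunits of the MCM helicase rose with U46619 and with EGF + U46619, by 1.11 to 1.79 and by 1.40 to 2.01 on the log2 scale, and they were the 6 licensing genes that rose with EGF + AngII. Cdc6, which loads this helicase on origins, rose by 2.08 ± 0.50 (log2, SE) with EGF + U46619, and Gmnn, which encodes geminin, an inhibitor of licensing, by 1.61 ± 0.41.

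Orc1 (ENSMUSG00000028587, chr4:108579423-108614833, plus strand) changed most in this group. Its level in the controls of mice 1 to 6 was 0.419, 0.924, 0.578, 1.47, 0.502 and 1.64 FPM. With U46619 it was 6.09, 15.4, 3.91, 2.85, 2.3 and 3.06 FPM, and with EGF + U46619 9.71, 18.2, 5.61, 1.96, 2.67 and 3.51 FPM. Every treated culture in both groups was above every control. The log2-fold change was 2.22 ± 0.43 (SE) with U46619 (edgeR FDR = 0.000238) and 2.50 ± 0.43 with EGF + U46619 (edgeR FDR = 4.14e-05). Without mouse 2, the mouse with the highest values, the group mean was under 5 FPM and neither call remained. With EGF alone the level was 3.09, 4.18, 1.98, 1.02, 2.63 and 2.88 FPM and the change, 1.35 ± 0.43 (edgeR FDR = 0.113), did not pass the test.

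Mcm6 (chr1:128331590-128359664, minus strand) had the highest FPM of the licensing genes. Its lowest, median and highest levels were 37, 54.9 and 90.3 FPM in the controls, 87, 111 and 172.5 FPM with EGF, 96.9, 137 and 228.4 FPM with U46619 and 83.9, 176.2 and 264 FPM with EGF + U46619. It rose by 1.29 ± 0.23 (log2, SE) with U46619 and 1.47 ± 0.24 with EGF + U46619 (edgeR FDR = 1.63e-05). By contrast Orc5, another subunit of the origin recognition complex, did not pass in any comparison. It lay at 23.8, 21.7, 22.7, 27, 21.7 and 18.8 FPM in the controls of mice 1 to 6 and at 27.2, 19, 38.3, 28.1, 20.7 and 12.7 FPM with EGF + U46619, a log2-fold change of 0.03 ± 0.12 (edgeR FDR = 0.855). Every other licensing gene measured passed with U46619.

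All 5 measured genes of helicase activation rose with U46619 and with EGF + U46619, and 2, Mcm10 and Cdc45, with EGF + AngII. Mcm10 (chr2:4989714-5012791, minus strand) had the largest log2-fold change of all 48 genes with EGF + U46619. Its level was 0.779, 0.77, 3.83, 6.61, 3.38 and 7.74 FPM in the controls of mice 1 to 6, 25.8, 13.6, 22.8, 9.08, 8.96 and 11.2 FPM with EGF and 44.6, 42.9, 36.2, 13.2, 14.3 and 11.5 FPM with EGF + U46619. The cultures of mice 1 and 2 started lowest and ended highest, and no culture with EGF or EGF + U46619 lay below any control. The change was 2.52 ± 0.51 (log2, SE) with EGF + U46619 (edgeR FDR = 0.000215), 2.08 ± 0.50 with U46619 and 1.72 ± 0.49 with EGF, the last with an edgeR FDR of 0.0942 and a DESeq2 FDR of 0.022. Cdc45, which travels with the helicase, rose by 1.68 with EGF + U46619 and the GINS subunit Gins1 by 1.79. Gins4 (chr8:23226616-23237659, minus strand) moved little: its lowest, median and highest levels were 27.2, 30.4 and 48.2 FPM in the controls and 29.6, 48.8 and 70.4 FPM with EGF + U46619, groups that overlapped. The fitted rise, 0.49 ± 0.15 (edgeR FDR = 0.00996), was lost without mouse 1, 2 or 3.

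The 8 polymerase and primase genes all rose with U46619 and with EGF + U46619, and 5 with EGF + AngII. Their median log2-fold change was 0.83 for EGF, 0.89 for U46619 and 1.15 for both together. Pole (chr5:110286306-110337474, plus strand), which encodes the catalytic subunit of the leading-strand polymerase epsilon, changed most: 2.4, 4.47, 7.67, 11.2, 7.49 and 16.3 FPM in the controls of mice 1 to 6, 46.9, 24.7, 41.2, 14.2, 19.2 and 20.4 FPM with EGF and 69.8, 52.8, 50.9, 20.2, 21.5 and 19.1 FPM with EGF + U46619. Its rise was 1.97 ± 0.42 (log2, SE; edgeR FDR = 0.000397) with EGF + U46619 and 1.47 ± 0.42 with U46619, the latter not called without mouse 2. Both primase subunits rose with EGF + U46619, Prim1 by 1.28 and Prim2 by 1.34. Pold2 (chr11:5872180-5878292, minus strand), an accessory subunit of polymerase delta, was the highest of the group in the controls. Its levels were 68.6, 33.7, 59.1, 38.7, 26 and 31.1 FPM in the controls and 128, 61.6, 100, 40.1, 44.2 and 37.8 FPM with EGF + U46619 in mice 1 to 6. These groups overlapped, but each mouse was higher with the mixture than in its own control, and the rise was 0.59 ± 0.17 (edgeR FDR = 0.00559).

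Of the 11 genes of the clamp, its loader, single-strand binding and ligation, 7 rose with U46619, 10 with EGF + U46619 and 4 with EGF + AngII. Pcna (chr2:132249162-132253314, minus strand) lay at 71.9, 62.3, 73.8, 183.9, 113 and 128 FPM in the controls of mice 1 to 6, at 310.1, 177.5, 248, 229.1, 190.8 and 151.1 FPM with EGF and at 398, 345, 367, 256, 208.2 and 132 FPM with EGF + U46619. Pcna barely moved in mouse 6, and rose about 5-fold in mice 1, 2 and 3 with the mixture. Pcna rose by 1.36 ± 0.27 (log2, SE; edgeR FDR = 0.000162) with EGF + U46619 and 1.19 ± 0.26 with U46619. Fen1 (chr19:10199132-10204169, minus strand), which trims the flaps of Okazaki fragments, was counted at only 0.539, 0.719, 1.47, 1.43, 1.14 and 1.73 FPM in the controls and 6.53, 7.98, 7.96, 2.06, 3.49 and 2.79 FPM with EGF + U46619. It rose by 1.96 ± 0.43 with EGF + U46619 (edgeR FDR = 0.000579), a call that fell away without mouse 1, 2 or 3, when the group mean was under 5 FPM. With U46619 its change was 1.71 ± 0.43 (edgeR FDR = 0.00282), but its mean stayed under 5 FPM and it was not called. Lig1, the ligase that joins these fragments, rose by 1.13 with EGF + U46619.

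The 5 clamp loader subunits rose together with EGF + U46619, by 0.51 (Rfc1) to 1.24 (Rfc4) on the log2 scale. With U46619 alone Rfc1 and Rfc2 did not pass, with 0.35 ± 0.18 and 0.59 ± 0.25. Of the 3 subunits of the single-strand binding protein, Rpa1 and Rpa2 rose with EGF + U46619, by 0.97 and 1.08, and Rpa3 (chr6:8255936-8259173, minus strand) did not pass. Rpa3 lay at 18.4, 22.4, 11.8, 23.6, 20.4 and 17.3 FPM in the controls of mice 1 to 6 and at 32.7, 31.3, 32.8, 18, 20.4 and 14.1 FPM with EGF + U46619, higher in mice 1, 2 and 3, and lower or about level in the others. Its fitted change was 0.32 ± 0.18 (edgeR FDR = 0.153), and it passed without mouse 4.

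All 6 nucleotide supply genes rose with U46619 and with EGF + U46619, with a median log2-fold change of 1.30 for EGF, 1.23 for U46619 and 1.50 for both together. Rrm2 (chr12:24708241-24714146, plus strand) encodes the small subunit of ribonucleotide reductase, the enzyme that makes deoxynucleotides. Its level was 18.4, 6.72, 13.3, 24.7, 30.3 and 69.2 FPM in the controls of mice 1 to 6 and 336, 165.6, 105, 37.9, 71.4 and 97.5 FPM with EGF + U46619, a rise of 2.12 ± 0.46 (log2, SE; edgeR FDR = 0.00044). The control culture of mouse 6 was higher than the treated culture of mouse 4, so the groups overlapped. Rrm1 (chr7:102441695-102469771, plus strand), the large subunit, went from a lowest, median and highest level of 66.3, 136 and 175.3 FPM in the controls to 146, 200.1 and 260.5 FPM with EGF and 155.5, 293 and 522 FPM with EGF + U46619. It rose by 1.14 ± 0.25 (edgeR FDR = 0.000468) with the mixture, and Dut, the dUTPase, by 0.89. Thymidine kinase Tk1 rose by 1.60 and thymidylate synthase Tyms by 1.40 with EGF + U46619.

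Ung (chr5:114130386-114139323, plus strand), which encodes the glycosylase that removes uracil from DNA, was 1 of the 2 genes called with EGF alone. It lay at 3.77, 2.41, 2.15, 4.47, 2.88 and 4.27 FPM in the controls of mice 1 to 6 and at 28.8, 11.4, 12.8, 5.21, 7.44 and 7.57 FPM with EGF. With U46619 it reached 19.2, 15.5, 10.9, 9.15, 10.1 and 6.03 FPM, and with EGF + U46619 17.1, 14.9, 11.1, 9.46, 11.9 and 8.84 FPM. In all 3 groups every culture lay above every control, mice 4, 5 and 6 included. The log2-fold change was 1.68 ± 0.29 (SE) with EGF (edgeR FDR = 0.00886), 1.72 ± 0.29 with U46619 (edgeR FDR = 6.52e-05) and 1.80 ± 0.29 with EGF + U46619 (edgeR FDR = 1.9e-05). The call with EGF was lost without mouse 1, 2, 3 or 5.

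Of the 6 genes of chromatin assembly and fork protection, 5 rose with U46619, all but Timeless, and 6 with EGF + U46619. Cdca7 (chr2:72476159-72486893, plus strand), a partner of the chromatin remodeller Hells, was the other gene called with EGF. Its level was 7.91, 7.29, 11.8, 7.23, 4.25 and 6.7 FPM in the controls of mice 1 to 6, 41.9, 32.6, 40.4, 7.92, 12.8 and 8.14 FPM with EGF, 37, 26.2, 28.8, 11.2, 10.8 and 9.34 FPM with U46619 and 42.1, 30.9, 40.3, 13.9, 18.1 and 8.06 FPM with EGF + U46619. Mice 1, 2 and 3 stood far above the controls with EGF, mouse 5 rose from the lowest control, and mice 4 and 6 changed little. The log2-fold change was 1.35 ± 0.23 (SE) with EGF (edgeR FDR = 0.00886), 1.23 ± 0.23 with U46619 and 1.53 ± 0.24 with EGF + U46619 (edgeR FDR = 1e-05), and the call with EGF was lost without mouse 1, 2, 3 or 5.

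Uhrf1 (chr17:56303321-56323486, plus strand), which reads hemimethylated DNA behind the fork, lay at 8.03, 9.6, 20, 36, 23 and 44.5 FPM in the controls of mice 1 to 6 and at 255, 155.99, 177.3, 61.1, 59.5 and 50 FPM with EGF + U46619. It rose by 1.98 ± 0.45 (log2, SE; edgeR FDR = 0.000827). Clspn (chr4:126556935-126593903, plus strand), a checkpoint mediator at the fork, changed most in this group, from 0.838, 1.54, 1.58, 4.99, 3.93 and 13.5 FPM in the controls to 33.1, 42.4, 20.6, 9.71, 9.86 and 12.9 FPM with EGF + U46619. Mouse 6 had the highest control and was unchanged within 1 FPM, while mice 1 and 2 rose from the lowest controls to the highest levels. The rise of Clspn was 2.22 ± 0.56 (edgeR FDR = 0.00194) with the mixture and 1.78 ± 0.56 with U46619, the latter not called without mouse 1 or 2. Both subunits of the histone chaperone CAF-1 rose with EGF + U46619, Chaf1a by 1.70 and Chaf1b by 1.43.

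**Figure D3:**
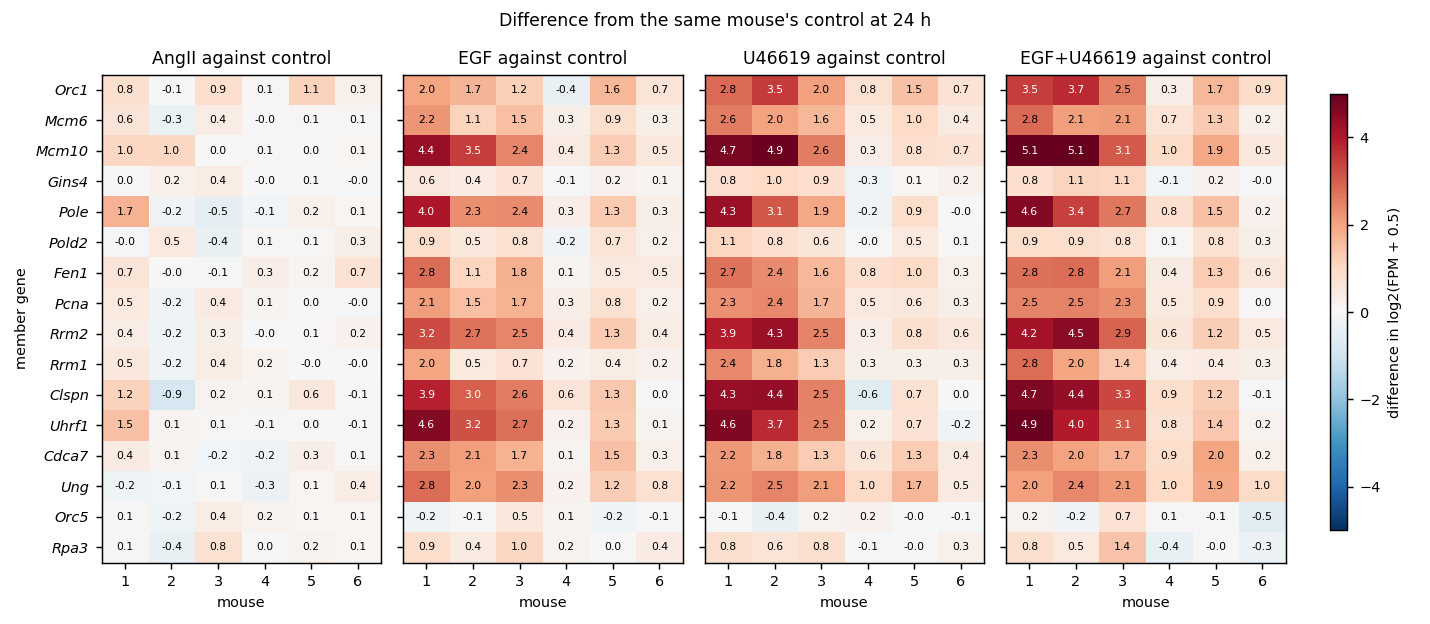
Difference in log2(FPM + 0.5) from the same mouse's control after 24 h for 16 replication genes (rows) in mice 1 to 6 (columns) with AngII, EGF, U46619 and EGF + U46619 (panels); red is higher and blue lower. With EGF + U46619 the columns of mice 1, 2 and 3 are the darkest for most genes, whereas the AngII panel is pale and Orc5 is pale in every panel.

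With AngII alone the fitted log2-fold changes of the 48 genes ran from −0.19 to 0.72, and 40 were above 0. Orc1 had the highest, 0.72 ± 0.44 (SE; edgeR FDR = 1), with 1.09, 0.819, 1.45, 1.57, 1.71 and 2.07 FPM in mice 1 to 6. Pcna lay at 100.3, 53.7, 99.7, 199.6, 115 and 124 FPM with AngII, above the untreated culture for 4 of the 6 animals. With EGF + AngII the 23 genes that rose included Mcm10 by 1.92 ± 0.50, Pole by 1.56 ± 0.41, Pcna by 1.16 ± 0.26, Ung by 1.55 ± 0.29 and Cdca7 by 1.34 ± 0.23. The 25 that did not pass included Orc1, at 1.55 ± 0.43 with a group mean under 5 FPM, and Rrm2, at 1.49 ± 0.44 (edgeR FDR = 0.052, DESeq2 FDR = 0.014).

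The changes of genes with and without the E2F motif overlapped. Among those with a promoter window and counts, the median log2-fold change with EGF + U46619 after 24 h was 1.47 for the 15 with the motif, from 0.71 to 2.50, and 1.25 for the 26 without it, from 0.03 to 2.52. Orc1 had the highest value among those with the motif. The difference of medians was not tested.

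Whether U46619 added to EGF was asked by direct comparison. Against EGF alone, EGF + U46619 called 1 of 48 genes, Orc1, with 7.03% of all genes rising in that comparison. Orc1 was higher by 1.15 ± 0.40 (log2, SE; edgeR FDR = 0.0435), higher in 6 of 6 mice, and the call was lost without any 1 of mice 1 to 5. The median over the 48 genes was 0.33, and 5 had an unadjusted p under 0.05 by both tests, against 13.9% of all genes higher. Against U46619 alone, EGF + U46619 called no replication gene by either tool (0% of all genes called), none had an unadjusted p under 0.05 by both tests, and the median was 0.22.

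The interaction term asked whether the effect of the mixture departs from the sum of both single effects on the log2 scale. It was below 0 for 47 of 48 genes, with a median of −0.73 against 0.03 over all genes, but neither edgeR nor DESeq2 called any (0% of all genes called). At an unadjusted p under 0.05 by both tests 10 of the 48 genes had a negative term, against 1.05% of all genes. Ung had the lowest, −1.60 ± 0.40 (edgeR FDR = 1), and Cdca7 had −1.05 ± 0.32 (edgeR FDR = 1). Ung was higher with EGF alone than with the mixture in mice 1 and 3 and lower in the other 4, as the plot of 4 genes by mouse shows. AngII added nothing that passed: EGF + AngII against EGF and EGF + AngII + U46619 against EGF + U46619 called no replication gene by either tool, with 0% of all genes called in each, no replication gene at an unadjusted p under 0.05 by both tests, and medians of 0.05 and 0.10.

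**Figure D4:**
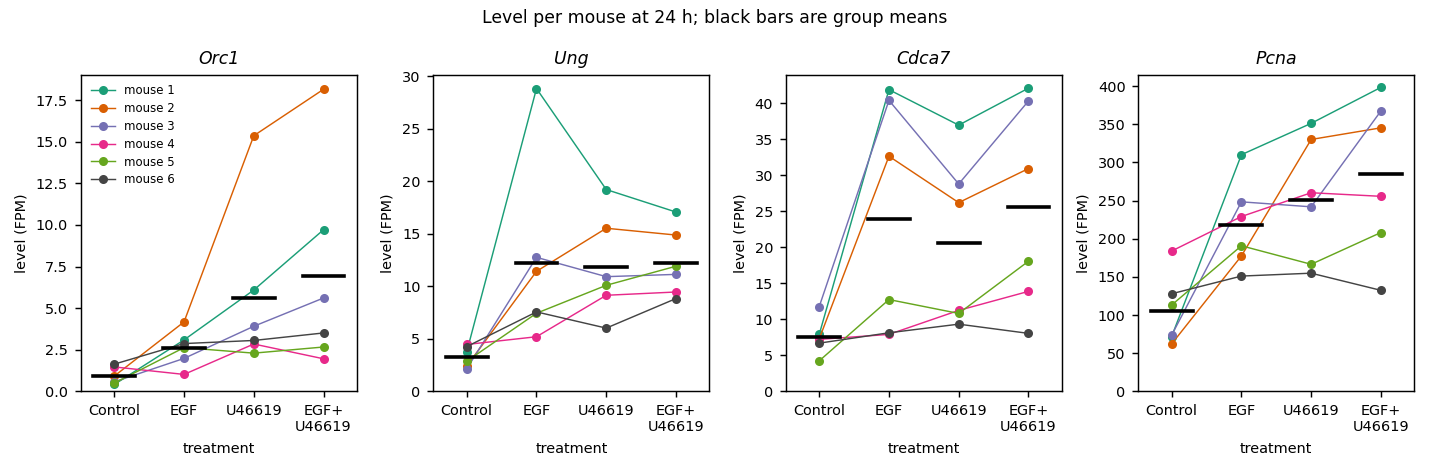
Levels of Orc1, Ung, Cdca7 and Pcna in FPM (vertical axes) after 24 h in the control, EGF, U46619 and EGF + U46619 cultures (horizontal axes); lines join the cultures of a mouse and black bars are group means. Orc1 is highest in mouse 2 with EGF + U46619, at 18.2 FPM, whereas Ung is highest in mouse 1 with EGF, at 28.8 FPM.

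After 48 h no replication gene passed the test in any of 9 comparisons, by edgeR or DESeq2, in the fit with the mouse number of the labels. That fit held both batches and no batch term, so the groups of 1 batch were compared in part with controls of the other. The mean summed level of the 48 genes in the controls was 1659 FPM in batch B1 and 1338 FPM in batch B2. The share of all genes called was 4.03% with U46619, 6.85% with EGF + U46619 and 4.81% for EGF + U46619 against EGF, and 0% in each of the other 6. At an unadjusted p under 0.05 by both tests, 4 replication genes were higher with U46619 (background 10.1%), 8 with EGF + U46619 (11.7%) and 1 for EGF + U46619 against EGF (10.4%), while 1 was lower with AngII (0.785%) and 2 for EGF + AngII against EGF (2.6%). The median over the 48 genes was 0.37 with EGF + U46619 and 0.33 with U46619 in that fit, but 0.15 and 0.12 within batch B1, the only batch that held these groups. With AngII and EGF + AngII the medians were −0.14 and −0.22, against 0.01 and −0.05 within batch B2.

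The culture sets of batch B1 did not move one way. From control to EGF + U46619 the summed level of the 48 genes went from 1513 to 1207 FPM in set 1, from 1550 to 1426 in set 2, from 1593 to 2079 in set 3, from 2251 to 2459 in set 4 and from 1386 to 2080.4 in set 5. Sets 1 and 2 fell and sets 3, 4 and 5 rose. The endothelial markers in the same controls summed to 710.2, 84.6, 108, 148.8 and 19.7 FPM in sets 1 to 5. In batch B2 the controls of the replication genes ranged from 989.9 to 1778 FPM, and EGF + AngII gave 1065 to 1829 FPM. The control culture of set 4 in batch B2 stood apart from the other cultures of its set, and leaving it out gave no call in the same fit. With the culture set as block in place of the mouse number, which did not act as a pairing, there was also no call, and with both changes U46619 called 1 replication gene and EGF + U46619 called 2. Within batch B1 alone U46619 called 1.

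For none of the 48 genes did every culture of a treated group in batch B1 lie above every control culture. The same count over all genes is not given, so it is descriptive only. Single genes did not always follow the sum of their set. Mcm10 had a lowest, median and highest level of 5.59, 7.1 and 13.2 FPM in the control, 5.46, 13.8 and 19.8 FPM with U46619 and 5.5, 15.9 and 20.1 FPM with EGF + U46619. For Pcna these were 141, 152.7 and 217.3 FPM in the control and 121, 196.3 and 229.6 FPM with EGF + U46619. Ung, which had passed in 5 comparisons with control after 24 h, had 3.24, 4.49 and 8.04 FPM in the control, 4.43, 5.31 and 8.18 FPM with EGF and 2.99, 5.26 and 6.9 FPM with EGF + U46619. In set 4, where the sum rose, Ung was lower with EGF + U46619 than in the control, and in set 2, where the sum fell, Mcm10 was higher.

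The difference between both time points was tested itself, in 1 model of the control, EGF, U46619 and EGF + U46619 cultures of 24 h and of batch B1 with the culture set as block. The fitted effect of EGF + U46619 was larger after 24 h than after 48 h for all 48 genes, and 27 of them passed the test, against 4.64% of all genes. The median difference was 1.22 on the log2 scale, against −0.02 over all genes. For U46619, 10 passed against 3.33% of all genes. For EGF none passed by either tool (0% of all genes), though 25 had an unadjusted p under 0.05 by both tests, against 4.07% of all genes. For U46619 and EGF + U46619 these unadjusted counts were 38 and 44, against 12.1% and 13.7%. Orc1 differed by 1.97 ± 0.54 (log2, SE; edgeR FDR = 0.0241), Mcm10 by 1.91 ± 0.61 (edgeR FDR = 0.0459), Ung by 1.83 ± 0.37 (edgeR FDR = 0.00808) and Pcna by 1.28 ± 0.32 (edgeR FDR = 0.0177) in the effect of EGF + U46619. The others named in full that passed were Mcm6, Gins4, Pold2, Fen1, Rrm1 and Cdca7, and those that did not were Pole, Rrm2, Clspn, Uhrf1, Orc5 and Rpa3.

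These counts depended on single culture sets. For EGF + U46619 the count was 0 without set 4 of batch B1, between 2 and 14 without mouse 1, 2 or 3 or set 1, 2, 3 or 5, and 28, 42 and 45 without mouse 5, 4 or 6. For U46619 it was 0 without set 4, between 1 and 5 without mouse 1, 2 or 3 or set 1, 2, 3 or 5, and 11, 29 and 37 without mouse 5, 4 or 6. Here too the shares of all genes called are not given, and the counts are descriptive only. Cultures of 24 h and 48 h came from different mice and were sequenced apart, so time, mice and sequencing batch cannot be told apart.

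Most other genes of the pathway, taken from lists that do not contain the 48, also rose after 24 h, where 17.1% of all genes rose with EGF + U46619. These lists too were chosen with earlier results of these data known, so they are not independent support. Of 21 measured other replication factors 17 rose with U46619 and 17 with EGF + U46619, among them Wdhd1, which tethers polymerase alpha to the fork, by 2.17 ± 0.36 (log2, SE). Of 11 other nucleotide supply genes 8 and 9 rose, with Ppat, the first enzyme of purine synthesis, at 1.43 ± 0.23 with EGF + U46619. Of 8 other replication chromatin genes 6 and 7 rose, Hells by 2.46 ± 0.51. Among 13 E2F and RB factors 9 rose with U46619 and 9 with the mixture, including the repressor E2f6 by 0.75 ± 0.12, and 1, the RB family gene Rbl2, fell by 0.73 with EGF + U46619, a gene named after its values were seen. All 6 measured S-phase cyclins and kinases rose with EGF + U46619 and 4 with U46619, Ccne1, the cyclin of the G1 to S transition, by 1.67 ± 0.32. With EGF alone no gene of these 5 lists passed or was called by edgeR. In the order given, 15, 7, 6, 8 and 5 were higher at an unadjusted p under 0.05 by both tests, against 7.81% of all genes. DESeq2 alone called 11, 2, 4, 2 and 4 of them, counts for which no share of all genes is given.

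Of 18 mitotic genes measured, 3 (Bub1, Tpx2 and Cdk1) rose with U46619, against 13.7% of all genes, and 17 with EGF + U46619, against 17.1%. None passed with EGF by either tool, although 18 had an unadjusted p under 0.05 by both tests, against 7.81% of all genes. Their medians were 1.51 for EGF, 1.24 for U46619 and 1.86 for both together. Whether these genes responded differently from the replication genes was not tested. Their summed level went from 87.5, 113, 161.7, 353, 302 and 536 FPM in the controls of mice 1 to 6 to 2892, 1916, 2285, 361, 438 and 442 FPM with EGF + U46619. It was many times the control in mice 1, 2 and 3, near it in mouse 4, above it in mouse 5 and below it in mouse 6.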

How the data were processed

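RNA of aVSMC was sequenced from 82 cultures, 42 taken after 24 h and 40 after 48 h. The deposited values are raw counts of read pairs per gene: the authors aligned paired-end reads of poly(A) libraries to mm10 with HISAT2 (2.1.0, per the submitters' processing notes) and counted exons with featureCounts, with reads of several alignments included. Samples were grouped by the treatment and time in the labels.

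Genes were kept with edgeR's filterByExpr (14653 at 24 h, 15796 at 48 h, 14528 at both), and FPM are counts after TMM normalisation. Each time point was fitted with all its groups as mouse + treatment, as the methods of the study describe, with the quasi-likelihood test of edgeR 4.0.16 and the Wald test of DESeq2 1.42.0 in R 4.3.3. At 48 h this fit had no batch term. A gene passed, or was called, where the Benjamini-Hochberg FDR over all genes was under 0.05 in both tools and the mean reached 5 FPM in 1 of the groups compared. Differences within a mouse were taken on log2(FPM + 0.5). On simulated data for EGF + U46619 against control at 24 h, 14653 genes with 50 changed at each size, 88% of genes with a true log2 change of 1 and 100% of those with 2 were called. For true changes of −1 and −2 the shares were 80% and 94%. At 48 h, with 15796 genes, they were 82% and 96% for rises of 1 and 2, and 84% and 96% for −1 and −2. The changed genes were drawn from those with a mean of at least 5 FPM, so recovery of genes with lower means was not tested. These shares hold for genes given a set true size. Recovery where the response differs between mice, as it did for the replication genes, was not tested. With EGF at 24 h the median log2-fold change of the 48 replication genes was 0.98, yet 2 of 48 were called.

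Cultures with the same number pair at 24 h: they come from the same mouse, and in all 126 pairs of groups their deviations from the group means correlated by over 0.1 (median r = 0.776). At 48 h this held in 57 of 60 pairs from the same culture set (median 0.804), and the 3 exceptions all held the control culture of set 4 in batch B2. The 5 culture sets that carry mouse number 7 correlated by 0.10 at the median over 10 pairs, so that number did not act as a pairing. By the labels, culture sets of 48 h may share animals, and p-values would then measure the spread between cultures. The main fit at 48 h blocked on the mouse number, so it did not use the pairing within culture sets that share a number.

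The genes and lists were chosen with earlier results of these data known. Values in full were given, for each role, for the gene with the largest absolute change with EGF + U46619 at 24 h and the gene with the highest mean FPM in the 24 h controls, for Cdca7 and Ung, and for genes that a comparison with 5 or fewer calls named. Of each other list, at most 3 genes were named, by the lowest edgeR p in the same comparison or, for markers, the highest FPM. Orc5 and Rpa3 were added because they did not pass. Promoters and exon overlaps came from RefSeq and gene annotation of GRCm38. The comparison of 24 h with 48 h was chosen after seeing the data. Alternatives are given at the end.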

Additional observations from a re-analysis of the deposited data

Results flagged for a closer look

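Single cultures stood apart from the rest of their group by the gap between the highest and the next culture relative to the whole range (Dixon's 95% limit), which chance gives in about 1 in 20 groups. For the summed level of the 48 genes, 1 of 15 groups held such a culture: the control of set 4 in batch B1 after 48 h, at 2251 FPM. For 16 single genes in 64 groups after 24 h, 4 did. These were Orc1 with U46619, at 15.4 FPM in mouse 2, Gins4 in the control of mouse 4, at 48.2 FPM, Clspn in the control of mouse 6, at 13.5 FPM, and Ung with EGF in mouse 1, at 28.8 FPM.

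The effect of a stimulus differed between 24 h and 48 h by a test of the difference itself, with 10 of 48 genes called for U46619, against 3.33% of all genes, and 27 for EGF + U46619, against 4.64%, each with the larger effect at 24 h. Both counts were 0 without set 4 of batch B1.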

How the results depend on the processing

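The main fit blocks on the mouse. Without the replicate block the count of replication genes called after 24 h was 0 with EGF, 26 with U46619, 0 with EGF + AngII and 0 for EGF + U46619 against EGF, and it changed by less than 1.5 times elsewhere. With only the groups compared in the fit these counts were 0, 19, 0 and 4, and 30 for all 3 stimuli. DESeq2 alone called 27 with EGF, 36 with EGF + AngII, 2 for EGF + U46619 against EGF and 20 for the difference in the U46619 effect between times, and the likelihood ratio test of edgeR with DESeq2 gave 23, 35 and 2 in the first 3. With no filter on low counts EGF called 17, and with at least 10 counts in every library EGF + U46619 against EGF called 0. After 48 h the U46619 count was 1 within batch B1, and with the culture set as replicate block and without 1 control library of batch B2, an alternative chosen after seeing the data, U46619 called 1 and EGF + U46619 called 2. The culture set as replicate block changed no other call. Shares of all genes called are not given for these alternatives.

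Leaving out each mouse or culture set in turn gave 0 to 29 with EGF, 19 to 44 with U46619, 0 to 38 with EGF + AngII, 0 to 1 for EGF + U46619 against EGF, and, for the difference between times, 0 to 37 with U46619 and 0 to 45 with EGF + U46619. The shares of all genes called are not given beside these ranges. The change of Orc5 took either sign, from −0.081 to 0.082 with EGF, −0.079 to 0.037 with U46619 and −0.10 to 0.17 with EGF + U46619. The cause of these changes was not tested. Against control, EGF + U46619 kept at least 38 calls under every alternative, and the other counts after 48 h stayed at 0. Depth limits the genes with few counts, among them Orc1, Fen1 and Ung, which lay under 5 FPM in every control culture after 24 h. The level of Fen1 is also uncertain for its overlap with exons on the opposite strand.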
